A study of Mus musculus with 8 samples.

Results

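The regulators of mitochondrial biogenesis described here are 10 genes: the coactivators Ppargc1a, Ppargc1b and Pprc1, the nuclear respiratory factors Nrf1, Gabpa and Gabpb1, the estrogen-related receptors Esrra, Esrrb and Esrrg, and the fatty acid sensor Ppara. They were taken by gene symbol from the 47628 named entries of the count tables. All 10 were present, each as a single entry, and all 10 were among the 19366 genes abundant enough to be tested (a mean count over 10 after normalization). RNA seq was performed on whole cochleae, untreated and aged 21 days by the study's methods. There were 4 WT mice, numbered 4, 5, 6 and 8, beside 4 Opa1+/- mice, which keep their labels Het_2, Het_7, Het_484 and Het_491 here. Opa1+/- mice carried 1 allele with the OPA1 delTTAG deletion, a germline knock-in present in every cell, on a mixed background of C57BL/6 J and 129 Sv/Pas. WT mice were littermates without the deletion. Homozygous mutants die before birth, so only heterozygous animals could be compared, and the study used both sexes. The list of cochleae in the study's supplement gives 4 mice and 8 cochleae per genotype. It was not stated how the cochleae were pooled into libraries.

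Mitochondria are built from proteins encoded by nuclear genes together with those of the mitochondrial genome, and a small group of nuclear regulators sets the supply of the nuclear part. PGC-1 alpha, PGC-1 beta and the PGC-1-related coactivator, the products of Ppargc1a, Ppargc1b and Pprc1, do not bind DNA themselves. They are recruited by transcription factors such as NRF1, GABP, the estrogen-related receptors (ERRs) and PPARA, which switch on genes of the respiratory chain, of mitochondrial DNA maintenance and of fatty acid oxidation. In the inner ear ESRRB is known from the marginal cells of the stria vascularis, the epithelium that secretes potassium into the endolymph, and mutations of its gene cause recessive deafness.

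Short stretches of RefSeq promoter sequence (GRCm38.p6) are printed below for the members in which a binding motif of another member, or of itself, was found. They show where in the regulators' own promoters NRF1 or GABP motifs lie. Of the 10 members, 9 matched an entry of the promoter table by symbol, with 15 windows in all, each reaching from 250 bases before to 50 bases after an annotated start. Sequences read 5′ to 3′ on the strand of the gene, and capitals mark the match.
Ppara, chr15:85735735-85735764, plus strand: gggctcggtgGCGCATGCGCgcggactagg
Gabpb1, chr2:126675788-126675817, minus strand: ccccgctgccGCGCAGGCGCcgggcgagcc
Esrra, chr19:6921823-6921852, minus strand: cccctgttttgCATGCGCaggccggccccg
Gabpa, chr16:84835020-84835049, plus strand: gagggtaagtgCTTCCGGgtccctcagcta

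The matches began at -31 in Ppara, -215 in Gabpb1, -33 in Esrra and -93 in Gabpa, where -1 is the last base before the annotated start. Both strands were searched. The NRF1 motif GCGCNTGCGC, in which N is any base, reads GCGCANGCGC on the other strand. It was found in Ppara, where the match reads as both forms, and on the opposite strand in Gabpb1. Of all 32851 promoter windows 4.603% held it. The shorter NRF1 core CATGCGC, which overlaps the longer motif in Ppara, was found in Esrra and Ppara and in 3.91% of windows. The GABP core CCGGAAG was found in Gabpa, on the opposite strand, and in 8.86% of windows, whereas its extended form CCGGAAGT was in no member window and in 3.89% of all. The ERR motif TCAAGGTCA (0.423% of windows) and the single nuclear receptor motif AAGGTCA contained in it (4.72% of windows) were in no member window. A match is a string of letters and was not tested as a binding site.

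Opa1, the mutated gene, was read first to check the genotypes. Its level was 119, 126, 112 and 122 CPM (counts relative to the scaled total of the library) in the WT mice and 63.5, 68.4, 60.4 and 70.02 CPM in the Opa1+/- mice. The groups did not overlap, and the level of every mouse fitted its label. Opa1 fell by 0.87 ± 0.07 (SE) on the log2 scale, with an adjusted p = 0.00515 (the quasi-likelihood test of edgeR, adjusted over all 19366 genes after Benjamini and Hochberg). The adjusted p was 0.0699 without Het_2 and 0.262 without both Opa1+/- mice of 3-digit number, while the log2 fold changes were -0.85 and -0.86. The 8 libraries held 15978051 to 20828030 counts on named genes, and 11.7% to 16.1% of the counts came from mitochondrial genes. Markers of hair cells, spiral ganglion neurons, strial marginal and intermediate cells and supporting cells were present in all libraries as befits a cochlea, but so were markers of bone, marrow, blood, fat and skeletal muscle. In bulk tissue, fewer cells of a type and less RNA per cell cannot be told apart.

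None of the 10 regulators passed the adjusted threshold of 0.05. Over all genes 5 of 19366 did, or 0.0258%. Log2 fold changes of the members, Opa1+/- over WT, ran from -0.24 for Esrrg to 0.26 for Pprc1, with 4 above and 6 below 0, and their median was -0.04. The median was positive without Het_491 (0.034), without both Opa1+/- mice of 3-digit number (0.034) and with limma voom (0.015), and the lowest value was -0.11, without WT mouse 8. Over all genes tested the median was 0.00040, and 5% of genes lay below -0.28 and 5% above 0.36. At an unadjusted p under 0.05, 1 of the 10 members (Pprc1) was called, against 6.72% of all genes tested. In no member were the 2 genotypes free of overlap, against 4.31% of all genes. These shares give no sign that the members differed more often than other genes.

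**Figure D1:**
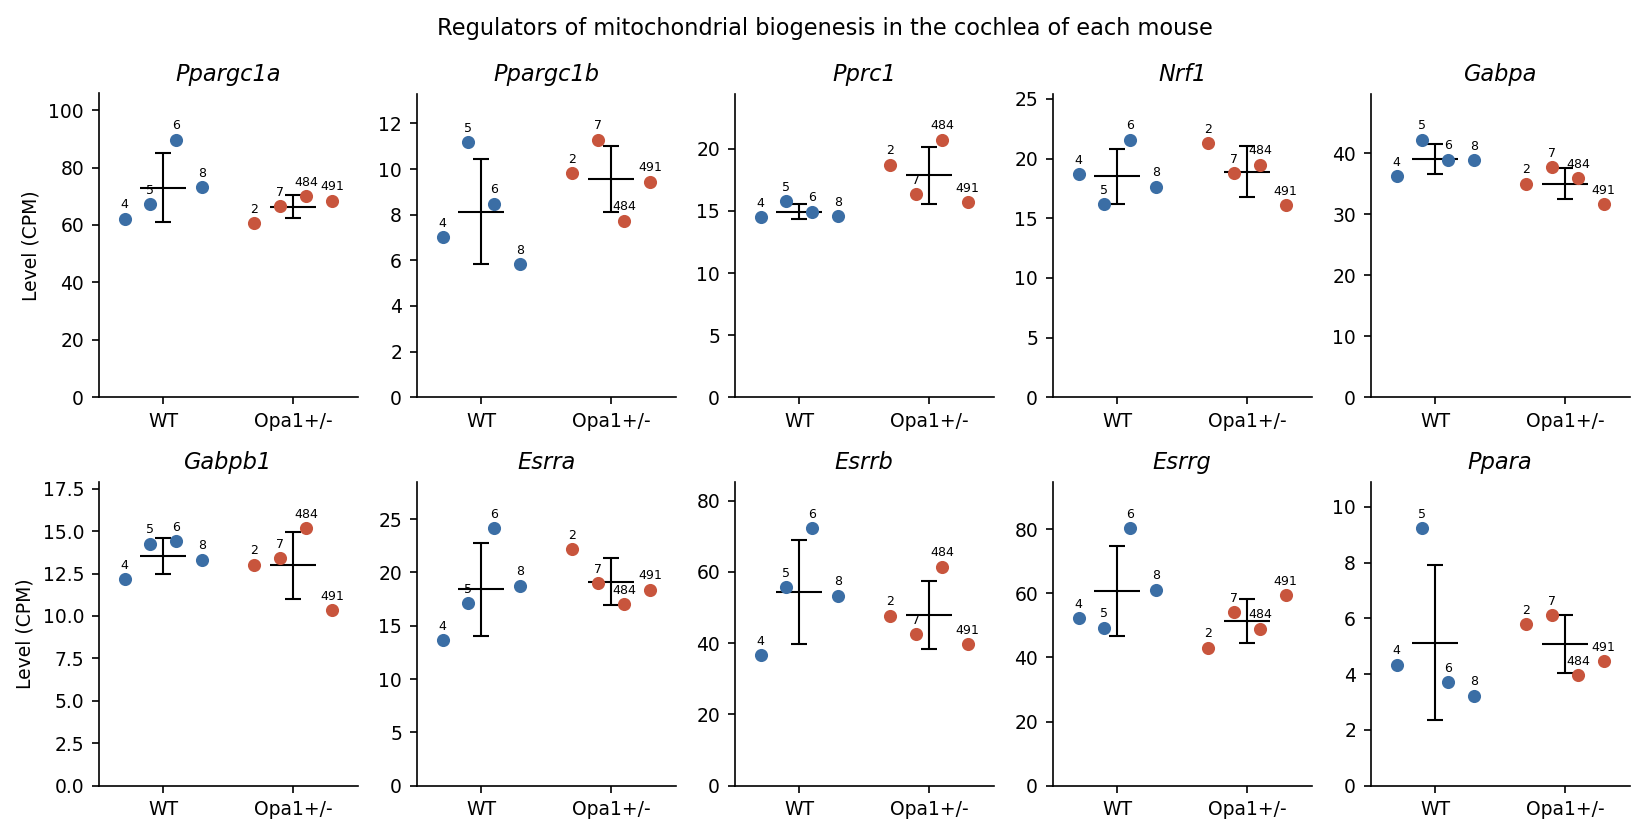
Level in CPM (vertical axis, from 0) of each regulator in 4 WT mice (blue) and 4 Opa1+/- mice (red), 1 point per mouse with the animal number, and the mean ± SD of each genotype in black. The ranges of the genotypes overlap in all 10 panels, WT mouse 6 is the highest WT mouse for Ppargc1a, Esrra, Esrrb and Esrrg, and WT mouse 5 is the highest for Ppara and Ppargc1b.

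Of the coactivators, Ppargc1a (chromosome 5, 51454250 to 51567726, minus strand, GRCm38) encodes PGC-1 alpha, the coactivator induced by cold, exercise and fasting. Its level was 62.2, 67.1, 89.7 and 73.1 CPM in the WT mice and 60.7, 66.6, 69.99 and 68.4 CPM in the Opa1+/- mice. The Opa1+/- mice lay close together and within the lower part of the WT range, apart from Het_2 just under it, and WT mouse 6 stood highest. The log2 fold change was -0.14 ± 0.11 (SE, adjusted p = 0.826), and the 95% interval of the fold ran from 0.77 to 1.08. Without WT mouse 6 the log2 fold change was -0.02.

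Ppargc1b (chromosome 18), for PGC-1 beta, a close relative of PGC-1 alpha, was at 7.02, 11.2, 8.48 and 5.83 CPM in the WT mice. The Opa1+/- mice were at 9.82, 11.3, 7.74 and 9.45 CPM. A single WT mouse, number 5, reached the upper Opa1+/- values, and the other 3 lay at or below the middle of the Opa1+/- range. The log2 fold change of 0.24 ± 0.20 (SE, adjusted p = 0.839) became 0.43 without WT mouse 5, with an unadjusted p under 0.05 and an adjusted p = 0.889, the cause of which was not tested. It was 0.10 without WT mouse 8 and 0.15 without Het_7. The interval of the fold, 0.86 to 1.61, was wide.

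Pprc1 (chromosome 19, 46044886 to 46072915, plus strand) encodes the PGC-1-related coactivator, which is known to be induced when cells enter the growth cycle. It was at 14.5, 15.8, 14.9 and 14.6 CPM in the WT mice, the tightest group of any member with a coefficient of variation of 3.88%, below the 5.84% that counting alone gives on average. The Opa1+/- mice were at 18.7, 16.3, 20.7 and 15.7 CPM, so that 3 of 4 lay above every WT mouse and Het_491 lay within the WT range. The log2 fold change of 0.26 ± 0.10 (SE) had an interval of the fold from 1.03 to 1.39 and an adjusted p = 0.722. It was positive under all 18 alternatives tried, between 0.18 and 0.31, and had an unadjusted p under 0.05 under 12 of them. Without WT mouse 4, WT mouse 8, Het_2 or Het_484 the unadjusted p was no longer under 0.05, and the log2 fold changes were 0.24, 0.24, 0.24 and 0.18. The same held with total counts as library sizes (0.23, unadjusted p = 0.0641) and without both Opa1+/- mice of 3-digit number (0.23, unadjusted p = 0.0574).

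The reads counted for Pprc1 may include some from a neighbour, since the annotation (GENCODE vM21) has Ldb1 starting 328 bases away on the other strand, with 177 exonic bases in common. In RefSeq the annotated start of Pprc1 is at 46056539 and the nearest start of Ldb1 at 46045311, so that the pair is farther apart there. Ldb1, for a cofactor of LIM domain proteins, was at 69.3, 66.5, 71.8 and 70.2 CPM in the WT mice. In the Opa1+/- mice it was at 74.1, 70.3, 76.6 and 61.0 CPM. Its log2 fold change was 0.02 ± 0.07 (SE, adjusted p = 0.964). The Opa1+/- mice had the same order by Ldb1 as by Pprc1, but the WT mice did not, mouse 5 being the highest of them for Pprc1 and the lowest for Ldb1. Whether reads were assigned by strand was not given in the sources used here.

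Of the nuclear respiratory factors, Nrf1 (chromosome 6, 30047988 to 30153458, plus strand), the transcription factor NRF1 of many respiratory chain genes and not the stress factor NFE2L1 that has shared its name, was at 18.7, 16.2, 21.6 and 17.6 CPM in the WT mice. The Opa1+/- mice were at 21.3, 18.7, 19.5 and 16.1 CPM, almost the same range. The difference on the log2 scale was 0.03 ± 0.11 (SE, adjusted p = 0.964) and the interval of the fold 0.86 to 1.22.

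Gabpa (chromosome 16, 84834925 to 84863779, plus strand) encodes the DNA-binding ETS subunit of GABP, also named NRF2 alpha. Its level was 36.3, 42.2, 39.0 and 38.9 CPM in the WT mice and 35.0, 37.7, 35.9 and 31.7 CPM in the Opa1+/- mice. All Opa1+/- mice but Het_7 lay below every WT mouse. The log2 fold change was -0.16 ± 0.07 (SE, adjusted p = 0.741), the interval of the fold ran from 0.80 to 1.0004, and the sign was negative under all 18 alternatives, with an unadjusted p under 0.05 in 5 of them. Gabpb1 (chromosome 2, 126627442 to 126676337, minus strand), for a partner subunit that activates transcription, was at 12.2, 14.3, 14.4 and 13.3 CPM in the WT mice. In the Opa1+/- mice it was at 13.01, 13.4, 15.2 and 10.3 CPM. The highest and the lowest value both belonged to Opa1+/- mice. On the log2 scale the change was -0.06 ± 0.12 (SE, adjusted p = 0.940), and the interval of the fold ran from 0.80 to 1.16.

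Gabpa lies head to head with Atp5j, which encodes a subunit of the mitochondrial ATP synthase. Their annotated genes start 700 bases apart and share 397 exonic bases, and the printed Gabpa stretch with the GABP core lies between the RefSeq start of Gabpa at 84835124 and one of the RefSeq starts of Atp5j at 84834976. Atp5j was at 145, 141, 170 and 147 CPM in the WT mice and 139, 131, 140 and 151 CPM in the Opa1+/- mice, overlapping. Its log2 fold change was -0.10 ± 0.08 (SE, adjusted p = 0.811), lower on average in the Opa1+/- mice as was that of Gabpa. Since the 2 genes share exonic bases, their counts are uncertain to that extent. Gabpb1 overlaps the antisense gene Gm27003 by 14 exonic bases, but Gm27003 was below the minimum for the test, at 0.383 ± 0.354 CPM in the WT mice against 0.422 ± 0.196 CPM in the Opa1+/- mice (mean ± SD, 4 each). The other genes that lie within a member, Mir6990 in Esrra, Mir378a and Gm25301 in Ppargc1b, Gm42613, Gm42614, Gm42615 and Gm43605 in Ppargc1a, 9330162B11Rik, Gm36388, Gm37929 and Gm38315 in Esrrg, Gm25580 in Nrf1 and Gm23753 in Gabpb1, had mean normalized counts between 0 and 5.47 and were not tested.

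**Figure D2:**
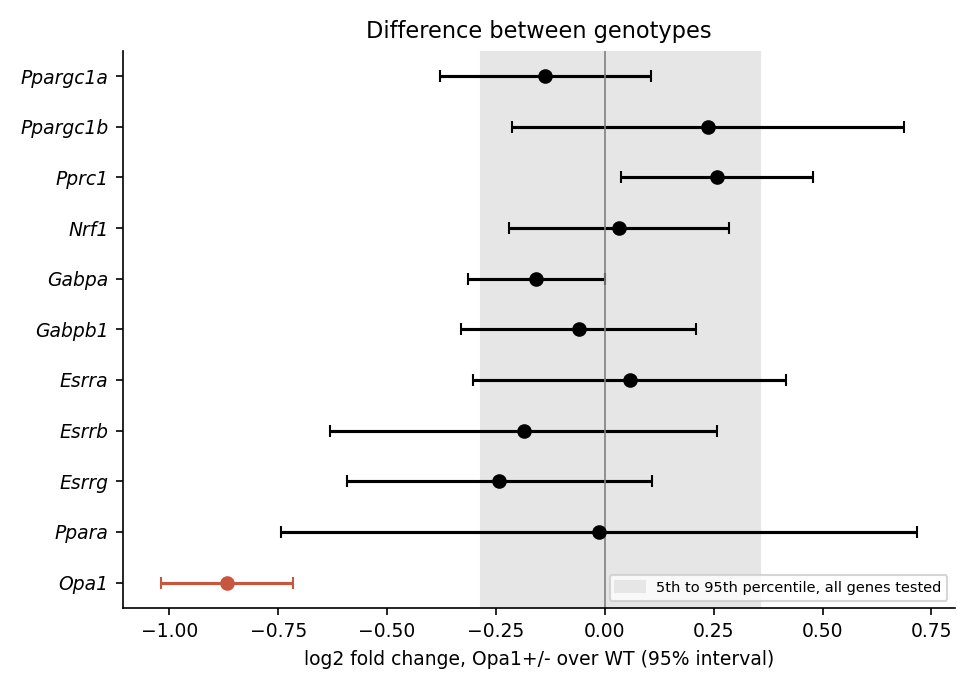
Log2 fold change (horizontal axis, Opa1+/- over WT) of the 10 regulators in black and of Opa1 in red, with 95% intervals from edgeR, and the range from the 5th to the 95th percentile of all genes tested in grey. Opa1 lies at -0.87, away from the grey band, while the points of all 10 regulators lie inside it and every interval but that of Pprc1 includes 0.

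The ERRs are orphan receptors that bind DNA without a known natural ligand and use the PGC-1 coactivators. Esrra (chromosome 19, 6910977 to 6921813, minus strand), the most widely expressed of the family in most tissues, was at 13.6, 17.1, 24.1 and 18.8 CPM in the WT mice. It was at 22.2, 19.0, 17.0 and 18.4 CPM in the Opa1+/- mice, all within the WT range. Its log2 fold change was 0.06 ± 0.16 (SE, adjusted p = 0.958), and the interval of the fold ran from 0.81 to 1.33. The last exonic 73 bases of Esrra overlap Trmt112 on the other strand, whose log2 fold change was 0.13 ± 0.08 (SE, adjusted p = 0.772).

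Esrrb (chromosome 12, 86361117 to 86521628, plus strand), the deafness gene of the group, was at 36.6, 55.7, 72.2 and 53.3 CPM in the WT mice and at 47.7, 42.6, 61.5 and 39.8 CPM in the Opa1+/- mice. The lowest and the highest values were both from WT mice, with a ratio of 1.97 between the highest and the lowest mouse. A log2 fold change of -0.19 ± 0.20 (SE, adjusted p = 0.878) was fitted. The 95% interval of the fold ran from 0.65 to 1.196, which holds both a fall and a rise. Leaving out WT mouse 6 moved the log2 value to -0.02, and leaving out WT mouse 4 moved it to -0.33.

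Esrrg (chromosome 1, 187608791 to 188214885, plus strand), known from tissues with a high energy demand such as heart and brain, was at 52.3, 49.3, 80.2 and 61.1 CPM in the WT mice. It was at 43.0, 54.0, 48.9 and 59.3 CPM in the Opa1+/- mice, 2 of which lay below every WT mouse. The log2 fold change of -0.24 ± 0.16 (SE, adjusted p = 0.790) was the lowest of the 10 members, and the interval of the fold ran from 0.66 to 1.08. WT mouse 6 carried most of it, and the log2 fold change was -0.08 without that mouse.

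Ppara (chromosome 15, 85734983 to 85802819, plus strand) encodes a nuclear receptor that senses fatty acids and switches on their oxidation. It had the fewest counts of the members, between 62 and 189 per library, and counting alone gives a coefficient of variation of 10.3%. It was at 4.34, 9.23, 3.70 and 3.23 CPM in the WT mice and 5.79, 6.12, 3.96 and 4.47 CPM in the Opa1+/- mice. WT mouse 5 had the highest value of all 8 and the other 3 WT mice were among the lower values. On average the genotypes were level, with a log2 fold change of -0.01 ± 0.33 (SE, adjusted p = 0.996) and an interval of the fold from 0.60 to 1.64. Without WT mouse 5 it was 0.44 (adjusted p = 0.889).

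Levels of different genes were compared per kilobase of merged exons. This length joins all annotated transcripts of a gene, from 3 for Ppargc1b to 20 for Nrf1. An error in it moves all mice of a gene alike and is not part of the spreads, orders and shares given here. On this scale Ppargc1a was first with 10.6 ± 1.36 CPM per kb (mean ± SD over all 8 mice), and it was above Esrrg, the next, in 8 of 8 mice. Esrrg (9.02 ± 1.83) and Esrrb (8.46 ± 1.98) were not separated, with Esrrg higher in 5 of 8 mice. Gabpa followed with 6.52 ± 0.555 CPM per kb, below Esrrb in 7 of 8 mice, and was clear of Esrra (4.28 ± 0.734), whose highest mouse lay below the lowest mouse for Gabpa. Esrra was above Pprc1 (2.61 ± 0.352) in 8 of 8 mice.

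The lower members formed a group in which neighbours were not separated beyond their spread. Pprc1 was above Ppargc1b (2.22 ± 0.488 CPM per kb) in 6 of 8 mice, Ppargc1b above Nrf1 (1.82 ± 0.201) in 6 of 8, Nrf1 above Gabpb1 (1.71 ± 0.193) in 5 of 8, and Gabpb1 above Ppara (1.33 ± 0.505) in 7 of 8. Among the 3 coactivators, Ppargc1a made up 71.3% ± 4.41 (SD, n = 4) of the summed level per kb in WT and 65.7% ± 2.30 in Opa1+/- mice. Among the 3 ERRs, Esrrg and Esrrb each held about the same share, 42.8% ± 4.16 and 39.0% ± 3.81 in WT and 40.3% ± 5.86 and 38.4% ± 6.13 in Opa1+/- mice, and Esrra held the rest. Of the summed level of Gabpa and Gabpb1, Gabpa held 79.8% ± 0.740 in WT and 78.7% ± 1.81 in Opa1+/- mice. These shares were not tested between genotypes. The last share leaves out Gabpb2, another GABP subunit gene, counted here among the partners. Gabpb2 was at 3.38 ± 0.0961 CPM per kb in WT and 3.01 ± 0.489 in Opa1+/- mice, above Gabpb1 in both.

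**Figure D3:**
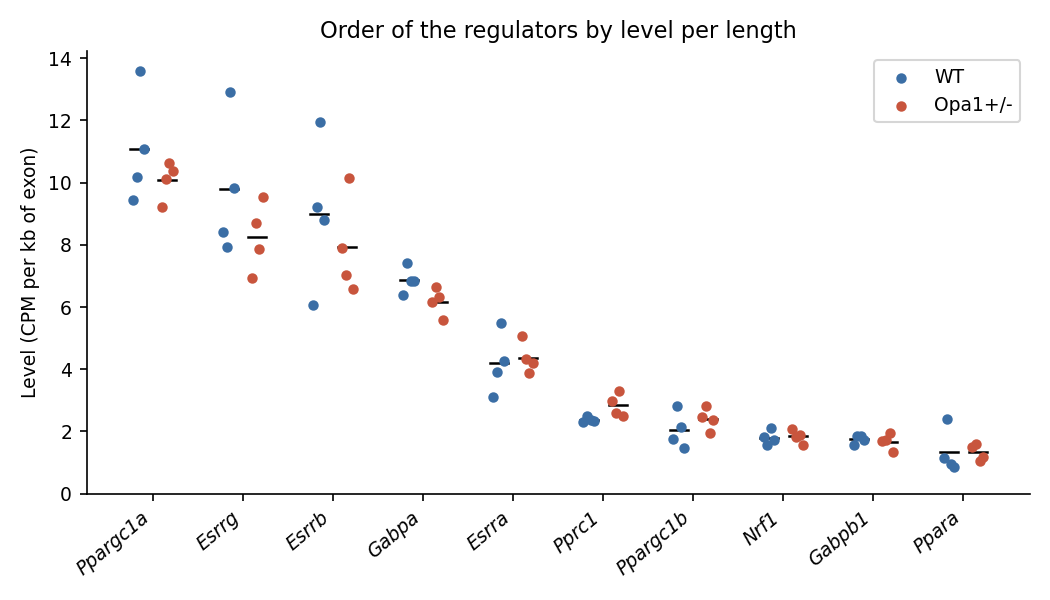
Level of the regulators in CPM per kb of merged exon (vertical axis, from 0), in the order of their mean over 8 mice, with 1 point per WT mouse (blue) and Opa1+/- mouse (red) and a black line at the mean of each genotype. Ppargc1a, Esrrg, Esrrb and Gabpa lie above Esrra in mean level, and Pprc1, Ppargc1b, Nrf1, Gabpb1 and Ppara lie between 1.33 and 2.61 CPM per kb on average.

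The levels of some members were set beside the summed markers of cell types in the same mice. The summed level of 9 strial marginal cell markers was 1878, 2638, 2945 and 2646 CPM in the WT mice and 2522, 2321, 2422 and 1986 CPM in the Opa1+/- mice (exact two-sided permutation p = 0.400). Of the 8 markers tested 7 had negative log2 fold changes, with a median of -0.16, and none was called. Esrrb followed it with a Pearson r of 0.89 and a Spearman rho of 0.83 on log2 CPM over the 8 mice, and with r = 0.76 after leaving out the 2 mice farthest from the median sum. It followed the sums of fibrocytes (r = 0.92, and 0.82 without the 2 farthest) and supporting cells (0.88 and 0.70) about as closely. All points share their library and its scaling, and the part of cell composition in the levels of Esrrb and Ppargc1a was not tested. Per 100 CPM of these markers Esrrb was at 1.95, 2.11, 2.45 and 2.01 CPM in the WT mice and 1.89, 1.83, 2.54 and 2.00 CPM in the Opa1+/- mice. The means were 2.13 ± 0.224 and 2.07 ± 0.322 (SD over 4 mice each, two-sided exact permutation p = 0.629). Ppargc1a had an r of 0.62 with the marginal cell sum, 0.81 with that of supporting cells, 0.72 with that of intermediate cells, 0.67 with that of fibrocytes and 0.70 with that of hair cells. Without the 2 mice farthest from the median of each sum, these were 0.76, 0.79, 0.34, 0.72 and 0.062. For Ppargc1a the ratio to the marginal cell markers was 2.92 ± 0.334 CPM in the WT and 2.90 ± 0.425 CPM in the Opa1+/- mice (SD over 4 mice each, two-sided exact permutation p = 0.914).

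Among 13569 tested genes with a mean count over 100, the 5 closest to Esrrb over the 8 mice were Clca2 (r = 0.98, rho = 1), Kcne1 (0.98, 0.98), Srpx2 (0.97, 0.98), Shb (0.97, 0.98) and Mitf (0.97, 0.95). Kcne1, itself one of the 9 markers, encodes a subunit of the potassium channel through which marginal cells secrete, and MITF is the master factor of pigment cells, to which strial intermediate cells belong. The 5 closest to Ppargc1a were Foxc1 (r = 0.98, rho = 0.95), Nrep (0.97, 0.88), Tm6sf1 (0.97, 0.98), Msi2 (0.96, 0.98) and Colgalt2 (0.96, 0.88). None of these 10 genes differed between genotypes in the test, with log2 fold changes between -0.21 for Clca2 and -0.05 for Shb. They were chosen as the closest of many genes, over few mice, and the values are descriptions.

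Among the members themselves, the highest correlations of log2 CPM over the 8 mice were Ppargc1a with Esrrg (r = 0.90, rho = 0.69), Ppargc1b with Ppara (r = 0.83, rho = 0.88) and Gabpb1 with Esrrb (r = 0.78, rho = 0.88). After leaving out the 2 mice farthest from the median of the first gene, r was 0.42 for Ppargc1a with Esrrg, 0.86 for Ppargc1b with Ppara and 0.88 for Gabpb1 with Esrrb. Ppargc1a and Esrrg were thus close mainly through the farthest mice. The lowest was Pprc1 with Esrrg (r = -0.60, rho = -0.67), which was -0.33 without the 2 farthest mice.

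Ppara was highest in the mouse with the most fat markers. The summed level of 9 adipocyte markers was 414, 1018, 39.3 and 115 CPM in the WT mice and 875, 770, 598 and 884 CPM in the Opa1+/- mice, and no marker was at 0 in all mice. WT mouse 5 held the most, WT mice 6 and 8 the least, and all 9 markers had positive log2 fold changes (median 0.84), although none passed the adjusted threshold and the sums overlapped (exact two-sided permutation p = 0.171). Ppara followed the sum with r = 0.67 and rho = 0.86, and Ppargc1b with r = 0.56 and rho = 0.69, over 8 mice that share library and scaling with the sum. Without the 2 mice farthest from the median sum, r was 0.67 for Ppara and 0.88 for Ppargc1b. Ppargc1a and Esrrg ran against the sum, each with r = -0.84, which was 0.21 and -0.09 without the 2 mice farthest from the median sum. The part of fat in the levels of these genes was not tested.

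Skeletal muscle markers, 12 of 12 found, summed to 541, 305, 2743 and 704 CPM in the WT mice and 325, 1411, 1049 and 32.8 CPM in the Opa1+/- mice (exact two-sided permutation p = 0.714). All 12 had negative log2 fold changes, with a median of -0.68, and none was called. WT mouse 6, with the most muscle, was also the highest of all 8 for Ppargc1a, Nrf1, Esrra, Esrrb and Esrrg. The r of Ppargc1a, Esrra, Esrrb and Esrrg with the muscle sum was 0.46, 0.23, 0.56 and 0.30, and 0.47, -0.09, -0.03 and 0.50 without the 2 mice farthest from the median sum. For Gabpb1, Nrf1 and Gabpa r was 0.80, 0.66 and 0.60, and 0.22, 0.13 and -0.23 without those mice. Gabpb1 also had r = 0.81 with the fibrocyte sum and r = -0.81 with the spiral ganglion neuron sum, and 0.77 and -0.59 without the 2 mice farthest from the median of each. Het_491 had the least muscle and was the lowest of all 8 mice for Nrf1, Gabpa and Gabpb1, while its values of Ppargc1a, Esrrb and Esrrg lay within the WT range. The part of muscle in these levels was not tested.

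**Figure D4:**
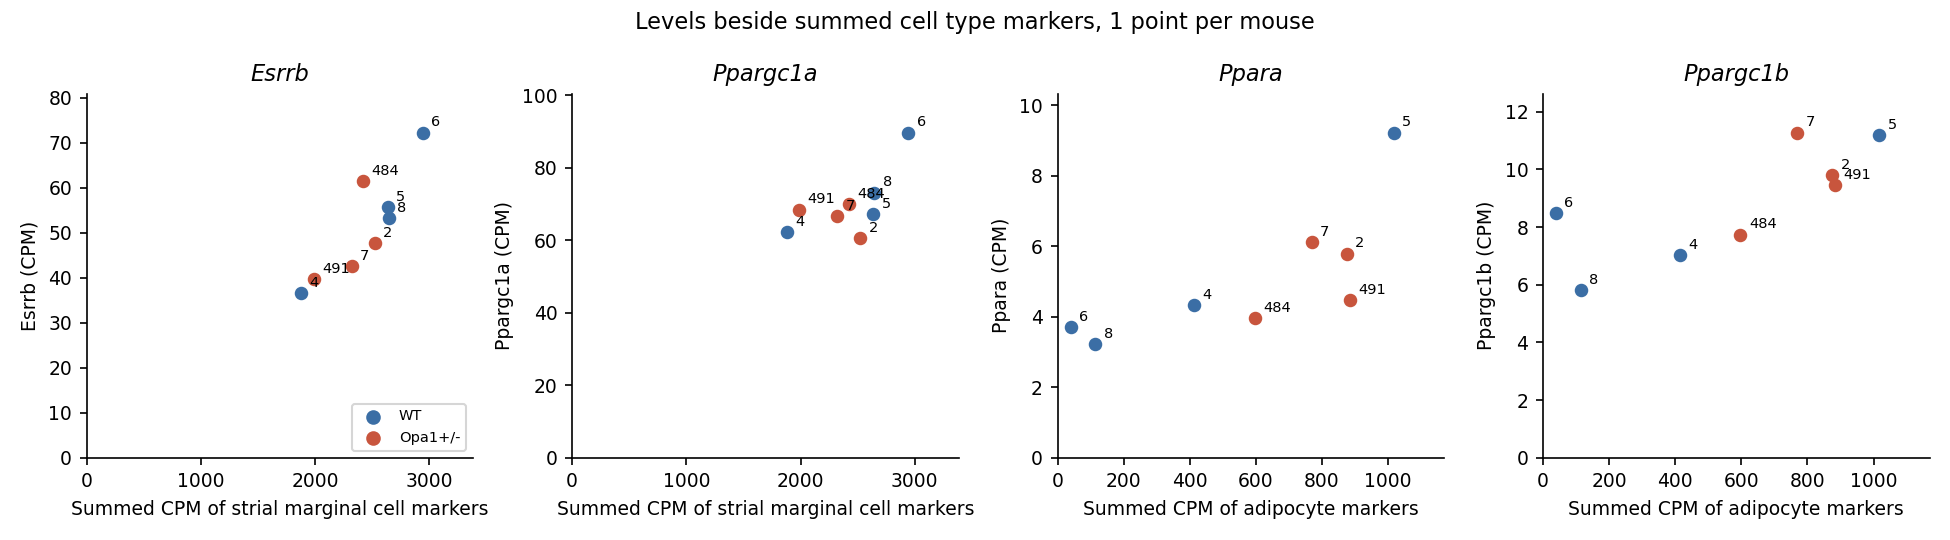
Level in CPM (vertical axes, from 0) of Esrrb, Ppargc1a, Ppara and Ppargc1b against the summed CPM of strial marginal cell or adipocyte markers (horizontal axes, from 0), 1 point per mouse with the animal number, WT in blue and Opa1+/- in red. Esrrb and the marginal cell markers are lowest in WT mouse 4 and highest in WT mouse 6, and Ppara is highest in WT mouse 5, which has 1018 CPM of adipocyte markers.

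The other genes of the pathway were examined as lists by role. Of 29 partners and upstream regulators of the members, none passed the adjusted threshold, 10 had positive and 19 negative log2 fold changes, and the median was -0.03. At an unadjusted p under 0.05 the list held 1 higher gene (Stk11) and 1 lower gene (Prkaa1), or 2 of 29, against 6.72% of all genes tested. Prkaa1, a catalytic subunit of the energy sensor AMPK, was at 59.6 ± 3.34 CPM in the WT mice against 53.3 ± 3.77 CPM in the Opa1+/- mice (mean ± SD, 4 each), a log2 fold change of -0.16 ± 0.07 (SE, adjusted p = 0.728). Stk11, which encodes LKB1, the kinase that activates AMPK, was at 74.8 ± 3.44 and 83.6 ± 6.34 CPM, a log2 fold change of 0.16 ± 0.07 (SE, adjusted p = 0.732). Fnip1, a binding partner of folliculin and AMPK, had a log2 fold change of -0.15 ± 0.07 (SE, adjusted p = 0.757).

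Sirt1, a deacetylase that acts on PGC-1 alpha, had the lowest log2 fold change of this list, -0.20 ± 0.10 (SE, adjusted p = 0.758), with 17.5, 20.02, 20.8 and 18.6 CPM in the WT mice and 19.5, 15.9, 16.3 and 15.3 CPM in the Opa1+/- mice. In all Opa1+/- mice except Het_2 it lay below every WT mouse. Pparg, the master regulator of adipocytes, had the highest log2 fold change, 0.76 ± 0.62 (SE, adjusted p = 0.832). It was at 9.30, 21.8, 1.55 and 3.08 CPM in the WT mice and 17.4, 17.6, 12.3 and 13.4 CPM in the Opa1+/- mice. Its highest mouse, WT mouse 5, and its lowest, WT mouse 6, were also the highest and the lowest for the adipocyte markers.

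The 8 factors of mitochondrial DNA transcription and replication that the members are known to regulate held no called gene. Of these, 2 had positive and 6 negative log2 fold changes, and the median was -0.04. Without WT mouse 5 or Het_2 the split was 4 and 4, with medians of -0.02 and -0.02. Tfb2m, a transcription initiation factor of mitochondrial DNA, had the lowest p of the list and averaged 30.04 ± 2.03 CPM in the WT mice against 26.8 ± 2.60 CPM in the Opa1+/- mice (SD, 4 each), a log2 fold change of -0.16 ± 0.08 (SE, adjusted p = 0.758). Polg, the catalytic subunit of the mitochondrial DNA polymerase, and Ssbp1, the single-strand binding protein, had -0.08 ± 0.06 and -0.06 ± 0.07 (SE, adjusted p = 0.802 and 0.897). Polrmt, the mitochondrial RNA polymerase, had the highest log2 fold change, 0.06 ± 0.11 (SE, adjusted p = 0.928). Tfam, which packages mitochondrial DNA and was named after its values were seen, was at 25.7, 29.3, 28.3 and 25.998 CPM in the WT mice and 24.7, 24.6, 29.3 and 29.4 CPM in the Opa1+/- mice, with a log2 fold change of -0.02 ± 0.08 (SE, adjusted p = 0.974).

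Of 18 target genes of NRF1 and GABP, mostly nuclear-encoded subunits of cytochrome c oxidase and succinate dehydrogenase, none was called. Of these, 16 had positive and 2 negative log2 fold changes with a median of 0.11, while 9709 of all 19366 genes tested were positive. Cox6a1, a cytochrome c oxidase subunit, was at 239, 242, 221 and 190 CPM in the WT mice and 263, 245, 264 and 309 CPM in the Opa1+/- mice. The groups did not overlap, and the log2 fold change was 0.28 ± 0.10 (SE, adjusted p = 0.722). Cox17, a copper chaperone for the same enzyme, had 0.21 ± 0.08 (SE, adjusted p = 0.722). Cox6a1 and Cox17 were the genes of the list at an unadjusted p under 0.05, or 2 of 18, against 6.72% of all genes tested. Tomm20, a receptor for protein import through the outer membrane, was at 120, 118, 125 and 124 CPM in the WT mice. In the Opa1+/- mice it was at 112, 118, 109 and 113 CPM, without overlap. Its log2 fold change of -0.11 ± 0.05 (SE, adjusted p = 0.749) went the other way. Cox6a1 and Tomm20 were the genes of the list without overlap, against 4.31% of all genes tested. The count of positive genes ran from 14 to 17 of 18 over the alternatives, each mouse left out included, and the median was 0.05 when WT mouse 8 was left out.

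The 12 ERR target genes encode mitochondrial enzymes and other mitochondrial proteins, with the kinase Pdk4 and the muscle regulator Perm1. None was called or had an unadjusted p under 0.05, against 6.72% of all genes tested. Of the 12, 10 were positive and 2 negative with a median of 0.10, while 9709 of all 19366 genes tested were positive. Acadm and Pdk4 also count among the PPARA targets below, and Perm1 among the partners above. Ogdh, a subunit of the oxoglutarate dehydrogenase, had 0.13 ± 0.09 and Acadm, the medium-chain acyl-CoA dehydrogenase, had 0.30 ± 0.24 (log2 fold changes ± SE, adjusted p = 0.807 and 0.830). Pdk4, a kinase that shuts off pyruvate oxidation, had the highest, 0.32 ± 0.30 (SE, adjusted p = 0.854), and Slc25a4, the adenine nucleotide translocator, the lowest, -0.04 ± 0.07 (SE, adjusted p = 0.939). Leaving out WT mouse 5 brought the median to 0.19, and leaving out either WT mouse 8 or Het_7 brought it to 0.04. The summed level of the list was highest in WT mouse 5 (3569 CPM) and lowest in WT mouse 8 (2777 CPM). In the Opa1+/- mice it ran from 3032 to 3433 CPM (exact two-sided permutation p = 0.400). The part of fat in these values was not tested either.

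Of 23 PPARA target genes 20 were abundant enough to be tested, and none was called. All 20 had positive log2 fold changes, from 0.05 to 0.67 with a median of 0.27, whereas the median over all genes tested was 0.00040 and 9709 of 19366 were positive. Angptl4, a secreted inhibitor of lipoprotein lipase, was the 1 gene of 20 at an unadjusted p under 0.05, against 6.72% of all genes tested. It was at 16.04, 21.97, 8.07 and 10.4 CPM in the WT mice and 19.0, 19.4, 21.8 and 30.1 CPM in the Opa1+/- mice, with a log2 fold change of 0.67 ± 0.29 (SE, adjusted p = 0.732). Acadvl, the very long-chain acyl-CoA dehydrogenase, was at 63.2, 108, 55.4 and 52.9 CPM in the WT mice and 94.8, 95.8, 79.3 and 86.7 CPM in the Opa1+/- mice, with 0.35 ± 0.21 (SE, adjusted p = 0.772). Ehhadh, an enzyme of peroxisomal fatty acid oxidation, had 0.27 ± 0.17 (SE, adjusted p = 0.785).

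The summed PPARA targets were also highest in the mouse with the most fat markers. Their summed level was 1081, 1603, 926 and 930 CPM in the WT mice and 1341, 1450, 1226 and 1375 CPM in the Opa1+/- mice (exact two-sided permutation p = 0.229). WT mouse 5 had the highest sum and WT mice 6 and 8 the lowest, as for the 9 adipocyte markers, and many of these enzymes are abundant in adipocytes. Ppara itself was not among the higher genes. Leaving out WT mouse 5 raised the median log2 fold change of the targets to 0.49, and leaving out WT mouse 8 lowered it to 0.16, while all 20 remained positive in both cases. Without both Opa1+/- mice of 3-digit number 18 of 20 were positive. The part of fat in these values was not tested.

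**Figure D5:**
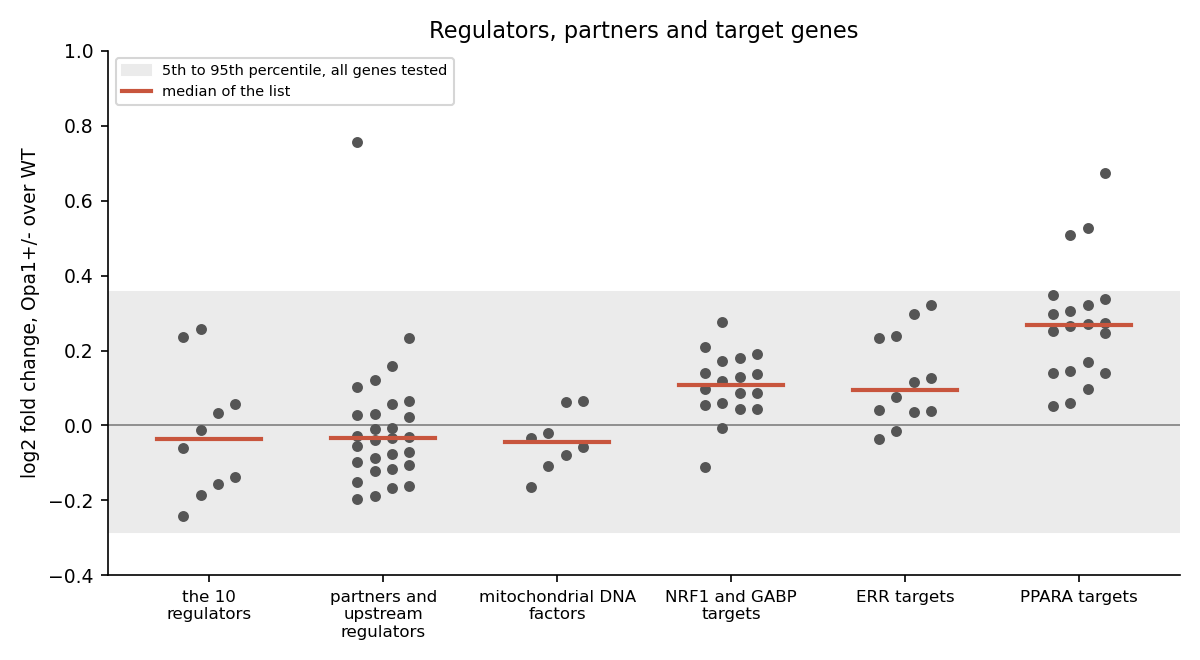
Log2 fold change (vertical axis, Opa1+/- over WT) of each tested gene of the 10 regulators and of 5 lists of partners and target genes, with the median of each list as a red line and the range from the 5th to the 95th percentile of all genes tested in grey. The medians are -0.04, -0.03 and -0.04 for the regulators, partners and mitochondrial DNA factors, 0.11 and 0.10 for NRF1 and GABP targets and ERR targets, and 0.27 for PPARA targets.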

How the data were processed

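RNA seq was performed by the authors on cochlear RNA with CORALL libraries and paired reads. Per the submitters' processing notes, FastQC, STAR and the build GRCm38 (mm10) were used. The study's methods name the CORALL analysis pipeline, with unique molecular identifiers used against amplification bias. The program that counted reads per gene, the annotation and the use of strand were not given in the sources used here. The authors deposited raw counts, whole numbers per gene symbol, for each of 8 mice, with 47643 entries. Of these, 15 carried a number in place of a symbol, held 0.112% to 0.124% of the counts and were left out. Counting error adds to the spread of low genes such as Ppara.

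Library sizes were total named counts scaled by TMM. Genes with a mean count over 10 after DESeq2 size factors were tested with edgeR 4.0.16 (R 4.3.3), without pairing, with Benjamini-Hochberg adjustment and a threshold of 0.05. Levels are CPM, or CPM per kb of merged GENCODE vM21 exons. Single values per mouse were compared by exact two-sided permutation over 70 arrangements, whose smallest p is 0.0286. The edgeR p-values set the difference between genotypes against the spread between mice, estimated with information shared across genes. The permutation p-values give the share of arrangements with a difference at least as large. Within a genotype no pair of libraries was a duplicate, the lowest chi-square per degree of freedom being 6.99.

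The members and gene lists were chosen with earlier results of these data known. Genes named from each list are those past the threshold, the 3 with the lowest p, and the largest log2 fold change in each direction. One gene that this rule names among the ERR targets is not reported here. For Ppargc1a and Esrrb the 5 genes with the highest Pearson r over 8 mice are named, among genes with a mean count over 100 (log2 of CPM plus 0.5). Genes overlapping a member, or starting within 1 kb of it on the other strand, are also named. Twnk was read under its older symbol Peo1. Alternatives used limma 3.58.1, DESeq2 1.42.0 and sva 3.50.0. The lists under each alternative and the ratios to marginal cell markers were added after seeing the data. Python 3.11.15 and matplotlib 3.10.9 drew the figures.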

Additional observations from a re-analysis of the deposited data

Results flagged for a closer look

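None of the 10 regulators, nor Opa1, had a mouse that stood apart from the other 3 of its genotype by the gap between neighbours relative to the whole range (Dixon's criterion for 4 values). Among the sums of gene lists 3 groups did, of 58 groups examined in all, and chance gives about 1 in 20. WT mouse 6 stood high for skeletal muscle markers with 2743 CPM. WT mouse 4 stood high for neutrophil and marrow markers with 1401 CPM and low for markers of spiral ligament and limbus fibrocytes with 3460 CPM. WT mouse 6 was the highest WT mouse for Ppargc1a, Nrf1, Gabpb1, Esrra, Esrrb and Esrrg, and WT mouse 4 the lowest for Ppargc1a, Pprc1, Gabpa, Gabpb1, Esrra and Esrrb.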

How the results depend on the processing

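None of the 10 regulators passed an adjusted p of 0.05 under any of the 18 alternatives, or 0.1 in the fit as reported. With DESeq2's Wald test 25 of all genes passed, with limma voom and with robust estimation 10 each, without a filter 12, at a threshold of 0.1 11, with a surrogate variable 1, without both 3-digit mice 0, and with 1 mouse left out 0 to 9. Genes with an unadjusted p under 0.05 numbered 1994 with limma voom, 582 without both 3-digit mice and 717 to 2002 with 1 mouse left out. Among the regulators these were 2 with DESeq2 size factors or limma voom, 0 without both 3-digit mice and 0 to 2 with 1 mouse left out. Opa1 was at -0.86 without both 3-digit mice (adjusted p = 0.262) and at -0.90 to -0.83 with 1 mouse left out. The sign of Ppara turned with limma voom (0.061), without both 3-digit mice (0.21) and, with 1 mouse left out, within a range of -0.19 to 0.44, without WT mouse 5 (0.44), Het_484 (0.089) or Het_491 (0.039). With 1 mouse left out, Esrra ran from -0.060 to 0.21, below 0 without WT mouse 4 or Het_2 (-0.018), Nrf1 from -0.028 to 0.11, below 0 without WT mouse 5 or Het_2 (-0.026), and Gabpb1 from -0.14 to 0.029, above 0 without Het_491. For these 4 genes no direction can be stated, and the cause was not tested. Ppargc1a, Ppargc1b, Pprc1, Gabpa, Esrrb and Esrrg kept their sign under all 18. The alternatives refit the same mice, so a kept sign does not by itself establish a direction. In the fit as reported the interval of the fold included 1 for each of these genes except Pprc1. No analysis paired by litter was possible because the litter of each mouse was not given in the sources used here. Depth limits Ppara most.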

Other observations

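Other cell types were measured by marker lists, none of which held a gene past the adjusted threshold. Schwann cell and myelin markers were positive in 10 of 10 genes (median log2 fold change 0.18), with a summed level of 3469 to 4695 CPM in WT and 4134 to 5583 CPM in Opa1+/- mice (exact two-sided permutation p = 0.257). Hair cell markers summed to 108 to 170 CPM in WT and 127 to 148 CPM in Opa1+/- mice (median -0.06, exact permutation p = 0.857), and spiral ganglion neuron markers to 5614 to 6687 and 5624 to 6691 CPM (median -0.0041, exact permutation p = 0.743). Esrra followed the hair cell sum with r = 0.90 over the 8 mice, and r was 0.49 after leaving out the 2 mice farthest from the median sum.

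Supporting cell markers summed to 903 to 1410 CPM in WT and 1048 to 1258 CPM in Opa1+/- mice (median -0.07, exact permutation p = 0.543), intermediate cell markers to 296 to 575 and 360 to 505 CPM (median -0.05, exact permutation p = 0.800) and fibrocyte markers to 3460 to 4701 and 3643 to 4720 CPM (median -0.14, exact permutation p = 0.486). Bone markers summed to 1657 to 1917 and 1317 to 1951 CPM (median -0.03, exact permutation p = 0.514), erythroid markers to 7741 to 21435 and 15050 to 25040 CPM (8 of 8 tested markers positive, median 0.56, exact permutation p = 0.171), and neutrophil and marrow markers to 430 to 1401 and 454 to 1168 CPM (median 0.0012, exact permutation p = 0.857). Gabpa and Gabpb1 ran against the erythroid sum (r = -0.73 and -0.57, and -0.85 and -0.72 without the 2 farthest). So did Esrrb, Ppargc1a, Esrra and Esrrg (-0.68, -0.62, -0.52 and -0.48, and -0.55, 0.098, -0.33 and 0.58 without those mice). Nrf1 had -0.24 (-0.13). Ppargc1b, Pprc1 and Ppara had positive r over the 8 mice (0.26, 0.32 and 0.16, and -0.65, -0.18 and -0.85 without those mice).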
